A study of Mus musculus with 20 samples.

Results

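The 100 most abundant transcripts of the mouse pancreas in these data were chosen by their summed counts. Each row of the deposited table, which stands for 1 gene, was summed over the 19 libraries that held counts, and the 100 rows with the highest sum were kept. They are 100 of 57126 rows, of which 28511 had at least 1 count, and together they held 54.9% of all 214221510 counts. The table pairs no row with a gene name or identifier, so each transcript is called by its rank in summed counts and, for a few, by the number of its row below the header. Because the counts themselves chose these transcripts, their high level is a description and not a result. Counts were not divided by transcript length, so a rank orders counts and not molecules, and no level is compared between transcripts in any other sense.

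Pancreas was taken from wild-type (WT) mice and from miR146a knockout (KO) littermates, all 6 to 8 weeks old. Mice of each genotype received either cerulein, at 50 µg/kg by intraperitoneal injection, or phosphate-buffered saline (PBS) in the same way. Injections were hourly, 7 in all, and every mouse was killed 1 h after the last. The 4 groups were WT PBS (5 libraries), WT cerulein (4), KO PBS (5) and KO cerulein (5). WT cerulein replicate 2 has a column of zeros only and was not used. The labels give no sex, litter or library batch. They name no promoter, Cre or cell type for the miR146a deletion, and do not say that each library is 1 mouse, so p-values measure the spread between these libraries.

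The exocrine pancreas is built mainly of acinar cells, which make and store digestive enzymes and their precursors. Messenger RNA for these secreted proteins is known to fill much of a pancreas RNA sample, so the most abundant rows of such a sample describe both the tissue and what is left of its depth for other genes. Cerulein is an analogue of cholecystokinin, the hormone that stimulates acinar secretion, and overdosing it is a standard way to bring on acute pancreatitis in mice. The microRNA miR146a is known as a brake on inflammatory signalling through NF-kB. Without names, neither the tissue label nor the deletion could be checked against marker genes, and no row is called an enzyme here.

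The smallest library had 806076 counts and the largest 36347215. Fewer than 2000000 were held by 4 libraries, replicates 1 and 2 of each PBS group. The 3 libraries above 20000000 counts gave 44.5% of all counts and so weighed most in choosing the 100 transcripts. When every library was weighted equally by ranking the mean share of counts, 90 of the 100 were still among the highest 100. At the edge of the choice, row 20037 (rank 99) had 123132 counts and row 51060 (rank 100) had 120120, while the next rows down, 1725 and 26373, had 119991 and 119587. Of the 100, 98 had counts in every library. Of the highest 100 by the PBS libraries alone, 80 were among them, and of the highest 100 by the cerulein libraries alone, 95. Of the 100 transcripts, 75 were in both of those lists, 20 in the cerulein list alone and 5 in the PBS list alone.

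In their profile over the 100 transcripts, some libraries stood apart from their group. The Pearson correlation of log2 (CPM + 0.5), CPM being counts scaled to a common library total, between WT PBS replicate 4 and the other WT PBS libraries ran from 0.290 to 0.847. WT PBS replicate 3 was closer to KO PBS replicate 3 (0.984) than to the other WT PBS libraries (at most 0.878), and KO PBS replicate 1 was closest to WT PBS replicate 5 (0.939). KO cerulein replicates 1 and 4 were closest to each other (0.966). These are descriptions across the same 100 rows, which are not independent of one another, and no library was moved from its labelled group. Results for cerulein are given below with and without WT PBS replicate 4 and KO cerulein replicates 1 and 4, which an earlier analysis of these data had set apart over all genes.

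The share of a library held by the 100 transcripts varied most in the PBS mice. For WT mice given PBS it was 30.8%, 47.4%, 69.5%, 16.3% and 34.0%. After cerulein in WT it was 58.3%, 61.3%, 58.8% and 51.3% in replicates 1, 3, 4 and 5. The 4 WT cerulein libraries thus lay within a narrow band that WT PBS spanned on both sides. In KO PBS the shares were 31.4%, 57.7%, 66.0%, 73.9% and 65.5%, and in KO cerulein 39.4%, 59.7%, 63.1%, 37.3% and 59.5%. In WT the mean was 39.6% ± 20.1 (SD, n = 5) with PBS and 57.4% ± 4.30 (SD, n = 4) with cerulein. In KO it was 58.9% ± 16.4 (SD, n = 5) with PBS and 51.8% ± 12.4 (SD, n = 5) with cerulein. The ranges of all 4 groups overlapped. No test is given, since a score over rows picked for their counts has no independent reference.

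The number of rows needed to reach 50% of a library's counts showed the same spread from another side. It was 11 in KO PBS replicate 4 and 1090 in WT PBS replicate 4. In the WT cerulein libraries it was 30, 22, 29 and 77. KO cerulein replicates 1 and 4 needed 376 and 430, against 19 to 27 in the other KO cerulein libraries. Between 55 of the 100 transcripts, in WT PBS replicate 4, and 87, in 4 of the cerulein libraries, were also among the 100 highest of the single library. In the cerulein libraries this number never fell below 85, while in the PBS libraries it never rose above 78. The choice of rows leaned the same way, with 95 of the 100 in the cerulein list and 80 in the PBS list. This gap therefore partly follows from the choice and is no result about treatment.

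The 10 highest transcripts alone held 31.7% of all counts. In descending order they were rows 26984, 52699, 45631, 17056, 48922, 4212, 17306, 12880, 7647 and 17255. Row 26984, the highest, took 6.22% of all counts. In WT PBS, from replicate 1 on, it held 0.487%, 2.56%, 9.29%, 0.147% and 1.45% of the library. The WT cerulein libraries had 7.22%, 7.76%, 7.91% and 6.74%. KO PBS libraries had 1.06%, 4.83%, 7.12%, 7.29% and 6.20%, and in KO cerulein 4.07%, 7.67%, 8.71%, 3.77% and 9.72%. A single WT PBS library, replicate 3, was as high as the cerulein libraries, and WT PBS replicate 4 was 66.3 times below the highest library of all. The edgeR quasi-likelihood test gave row 26984 a log2 change with cerulein of 1.24 ± 1.11 (SE, adjusted p = 0.568) in WT and 0.02 ± 1.04 (SE, adjusted p = 0.997) in KO, neither of which passed.

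The transcripts ranked 2 to 4 and 6 to 10 followed the first. Row 52699, rank 2, held 0.384%, 1.89%, 5.72%, 0.0820% and 0.955% of WT PBS and 5.86%, 6.44%, 5.11% and 4.76% of WT cerulein. KO PBS libraries had 0.796%, 5.85%, 6.29%, 8.52% and 8.09%, and KO cerulein libraries 2.89%, 5.98%, 6.78%, 3.29% and 4.86%. Rows 26984 and 52699 changed places as the highest row of a library: row 52699 led KO PBS replicates 2, 4 and 5, and row 26984 led all 4 WT cerulein libraries. Rank 3 (row 45631) averaged 1.47% ± 1.70 (SD, n = 5) in WT PBS and 3.57% ± 0.419 (SD, n = 4) after cerulein, and 3.52% ± 1.86 (SD, n = 5) and 2.76% ± 1.01 (SD, n = 5) in KO. Rank 10 (row 17255) averaged 1.22% ± 1.65 (SD, n = 5) and 2.14% ± 0.213 (SD, n = 4) in WT, and 2.88% ± 1.44 (SD, n = 5) and 1.75% ± 0.540 (SD, n = 5) in KO. All 9 of these transcripts, rank 1 included, had their lowest share in WT PBS replicate 4, and none passed the test in any comparison.

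Row 48922, the fifth, varied differently from the other 9. It held 9.73%, 18.2%, 1.22%, 1.37% and 8.09% of the WT PBS libraries and 3.60%, 1.55%, 2.90% and 1.32% of the WT cerulein ones. The KO PBS libraries gave it 8.70%, 4.43%, 3.26%, 0.836% and 1.53%, and in KO cerulein 4.47%, 4.84%, 1.19%, 1.57% and 2.20%. It was the single highest row of WT PBS replicates 1, 2 and 5, KO PBS replicate 1 and KO cerulein replicate 1, libraries in which row 26984 held 0.487% to 4.07%. The groups overlapped, and its log2 change with cerulein of -1.11 ± 0.82 (SE, adjusted p = 0.474, edgeR) in WT did not pass the test.

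**Figure D1:**
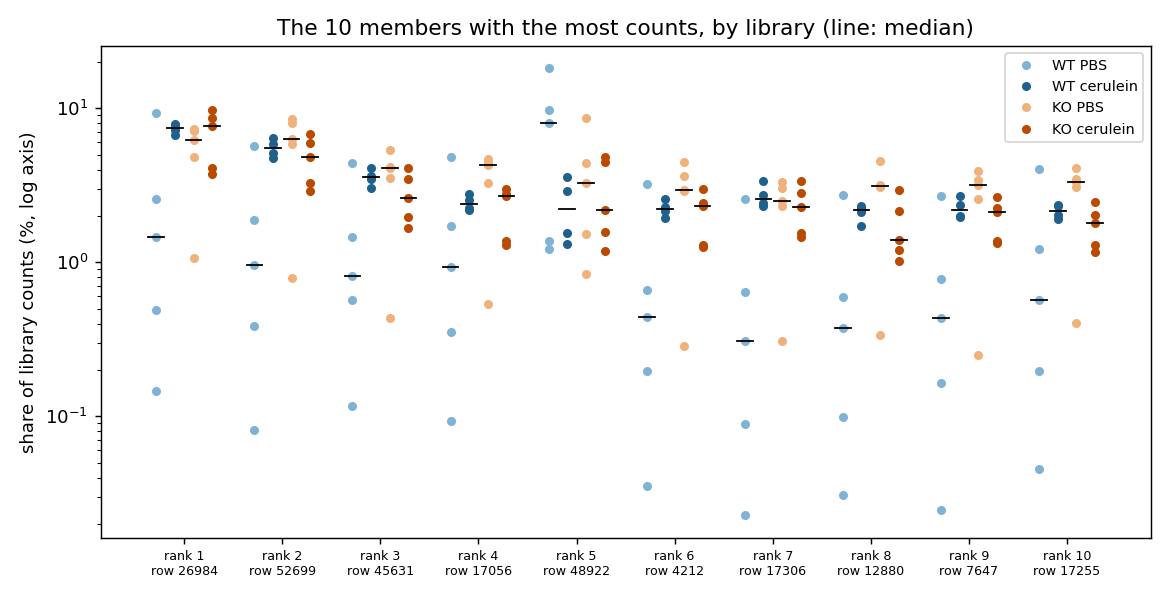
Share of each library's counts, in percent on a log axis, held by the 10 highest transcripts, by rank; each point is 1 of the 19 libraries, coloured by group, and each short line a group's median. Rank 5, row 48922, reaches 18.2% in a WT PBS library, while the other 9 are lowest in WT PBS replicate 4.

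The 100 transcripts were divided into blocks by how they varied over the libraries. Average-linkage clustering on 1 minus the Pearson correlation of log2 (CPM + 0.5) over the 19 libraries, divided into 4, put 32 transcripts in block 1, 22 in block 2, 43 in block 3 and 3 in block 4. Block 1 held 43.1% of all counts, with 9 of the 10 highest transcripts and 18 of the 20 highest, and is led by row 26984. Block 2 held 5.70% and is led by row 48922. Block 3 held 5.75%, is led by the transcript ranked 20 and has 30 of the 50 lowest ranks. Block 4 held 0.321% and is led by row 24673 (rank 44). The median correlation between pairs of the same block was 0.919 in block 1, 0.723 in block 2, 0.557 in block 3 and 0.862 in block 4. The lowest pair stood at -0.537 in block 1 and -0.262 in block 3, so some transcripts of these blocks ran opposite to each other; in block 2 it stood at 0.280 and in block 4 at 0.852. The blocks come from the values of these libraries, so a difference between blocks is a description and gets no test.

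**Figure D2:**
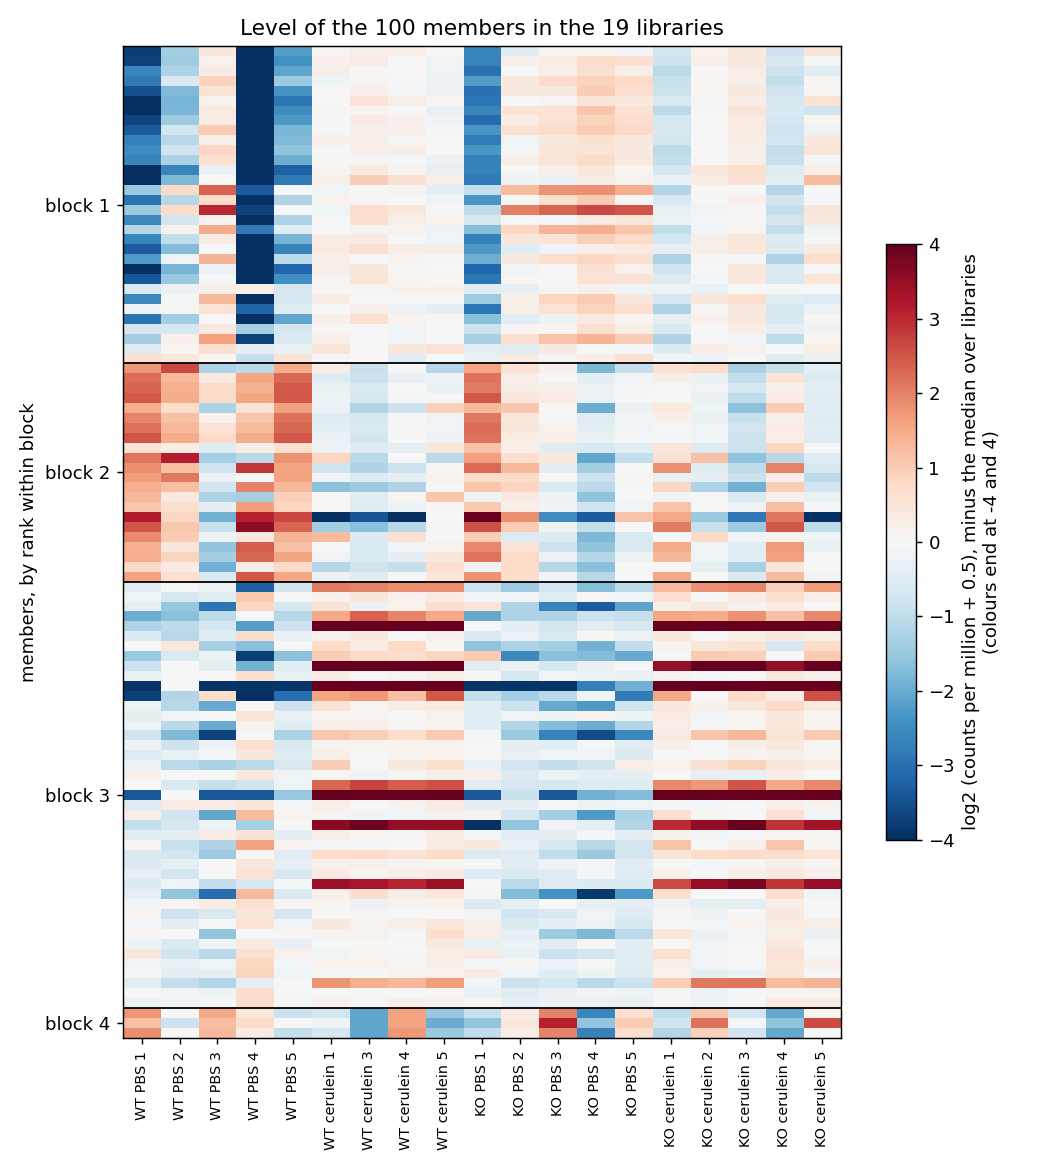
Level of the 100 transcripts (rows of the picture, ordered by block) in the 19 libraries (columns, by group), drawn as log2 (CPM + 0.5) minus the median of that transcript over the libraries. Block 1 is low in WT PBS replicate 4 and high in KO PBS replicate 4, and part of block 3 is high in every cerulein library.

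Block 1 set most of the variation in how full a library was. Its summed share was 4.89%, 18.8%, 61.5%, 1.42% and 10.8% in WT PBS. The WT cerulein libraries had 44.0%, 49.8%, 44.8% and 38.9%. Among KO PBS libraries it was 7.53%, 46.2%, 55.9%, 68.7% and 58.2%, and in KO cerulein 24.3%, 44.3%, 52.1%, 24.7% and 46.8%. In WT PBS 4 of the 5 libraries lay below every cerulein library of either genotype, and in KO PBS only replicate 1 did. In WT the PBS mean was 19.5% ± 24.4 (SD, n = 5) and the cerulein mean 44.4% ± 4.46 (SD, n = 4). In KO they were 47.3% ± 23.6 (SD, n = 5) and 38.4% ± 13.0 (SD, n = 5). In bulk tissue, fewer cells of a type and less RNA per cell cannot be told apart, and how much of the sampled tissue each cell type made up was not tested.

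Block 2 was largest in PBS libraries low in block 1, though not in all of those. It held 21.3%, 25.3%, 4.32%, 8.94% and 19.8% of the WT PBS libraries, against 3.19% to 5.93% of the WT cerulein libraries. The KO PBS libraries had 19.8%, 8.39%, 6.03%, 2.60% and 4.11%, against 2.66% to 8.13% in KO cerulein. Its 4 largest shares, in WT PBS replicates 1, 2 and 5 and KO PBS replicate 1, came with block 1 at 4.89% to 18.8%. Of these 4 libraries, 3 are among the shallow ones, and the part of depth in this was not tested. WT PBS replicate 4 did not follow, with the lowest block 1 share of all, 1.42%, and block 2 at 8.94%. Expressed as a share of the counts outside block 1, which takes out the room that block leaves, block 2 was 19.2% ± 9.07 (SD, n = 5) in WT PBS and 8.37% ± 2.05 (SD, n = 4) in WT cerulein, and 13.8% ± 5.16 (SD, n = 5) and 9.06% ± 2.97 (SD, n = 5) in KO.

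Block 3 was the block whose summed share separated cerulein from PBS in every library. It held 3.35%, 2.92%, 2.74%, 5.38% and 3.17% of WT PBS and 3.91%, 2.60%, 2.38%, 2.49% and 2.54% of KO PBS. After cerulein it held 8.19%, 8.17%, 7.56% and 7.99% in WT and 6.75%, 7.06%, 8.06%, 6.61% and 7.74% in KO. The highest PBS library, WT PBS replicate 4 at 5.38%, stayed below the lowest cerulein library, KO cerulein replicate 4 at 6.61%. As a share of the counts outside block 1 it was 4.65% ± 1.61 (SD, n = 5) and 14.4% ± 1.39 (SD, n = 4) in WT, and 5.70% ± 1.44 (SD, n = 5) and 12.4% ± 3.52 (SD, n = 5) in KO. On that scale too the PBS libraries, at 3.53% to 7.98%, lay below the cerulein ones, at 8.78% to 16.8%. Since 20 of the 100 transcripts would not have been chosen from the PBS libraries alone, the separation partly follows from the choice of rows. Much of the gap lay in the 16 members of block 3 called higher in WT below. They held 0.750% of WT PBS replicate 4 and 2.68% of KO cerulein replicate 4. Without them WT PBS replicate 4 was above KO cerulein replicate 4, so the rest of the block did not separate the treatments.

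Block 4 is 3 transcripts, ranked 44, 62 and 71, that rose and fell together within groups rather than between them. Row 24673 held 0.707%, 0.209%, 0.594%, 0.288% and 0.114% in WT PBS and 0.126%, 0.0498%, 0.640% and 0.0738% in WT cerulein. In KO it held 0.0345% to 0.825% after PBS and 0.0503% to 0.439% after cerulein. Every group held both high and low libraries, and none of the 3 passed the test in any comparison.

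**Figure D3:**
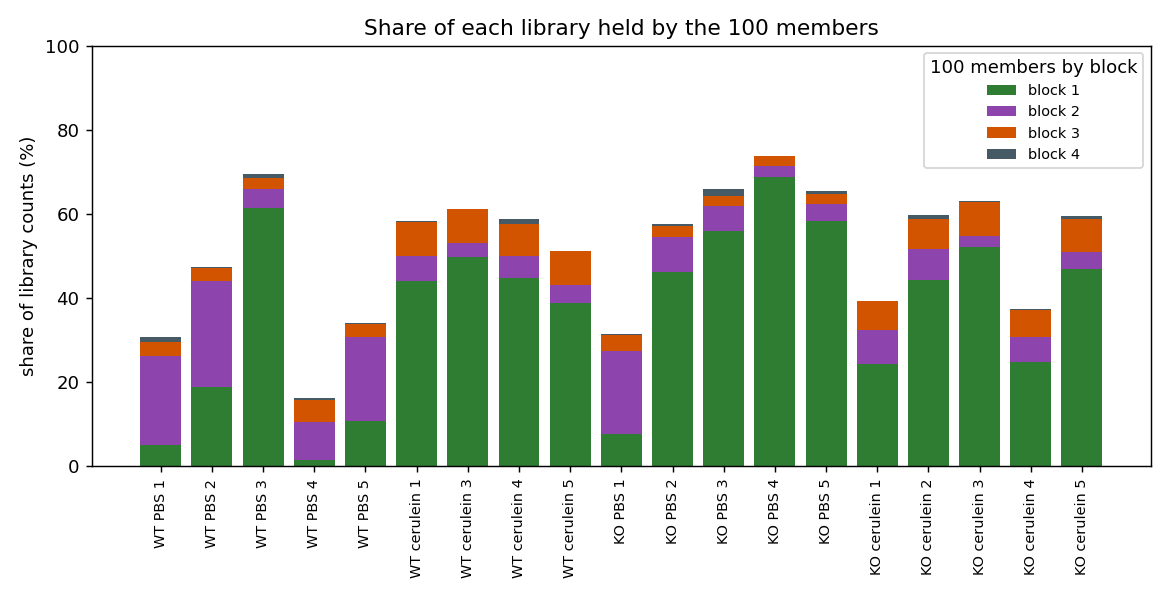
Share of library counts, in percent, held by the 100 transcripts in each of the 19 libraries; each bar is 1 library and its stacked parts are blocks 1 to 4. Block 3 reaches at most 5.38% in a PBS library and at least 6.61% in a cerulein library, while block 1 spans 1.42% to 68.7%.

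Cerulein against PBS was then tested for each transcript in the edgeR quasi-likelihood fit over all 15831 rows that passed its filter on low counts. All 100 transcripts passed that filter. In WT mice, 16 of the 100 rose, against 4.27% of all rows tested, and 7 fell, against 1.35%. With library totals as the scale, 12 rose and 5 fell, against 1.27% and 1.80% of all rows. All 16 that rose were in block 3 and all 7 that fell were in block 2. The libraries of the groups did not overlap, in share of counts and in the higher direction, for 21 of the 100 (3.62% of all rows tested), and in the lower direction for 6 (4.75%). The median log2 change over the 100 was 0.69, against -0.096 over all rows tested. Of the 16 that rose, 4 were among the 100 highest by PBS libraries alone; the other 12 had entered through their cerulein counts, so that their rise had to follow and their number supports nothing by itself. All 7 that fell were among the 100 highest by PBS libraries alone.

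In KO mice, 15 of the 100 rose, against 1.35% of all rows tested, and 0 fell, against 0.524%. At an unadjusted p under 0.05, 30 of the 100 differed in either direction in the edgeR test, against 15.0% of all rows. DESeq2 and limma-voom each called 6 lower, against 2.75% and 3.32% of all rows. All 15 that rose were in block 3. Their libraries did not overlap in the higher direction for 18 of the 100 (5.98% of all rows tested) and in the lower direction for 0 (0.771%). Only 3 of the 15 were among the 100 highest by PBS libraries alone. The transcripts called in both genotypes numbered 14, which is 87.5% of those that rose in WT and 93.3% of those that rose in KO. Most of these 14 had entered through cerulein counts summed over both genotypes. Neither the number of rises in KO nor this overlap therefore supports anything by itself. The transcripts ranked 57 and 90 passed in WT alone and the one ranked 84 in KO alone; the difference between genotypes passed for none of the 3.

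The 2 transcripts with the largest rise were close to absent in PBS mice. Row 17251 (rank 47) had 0 counts in 4 of the 5 WT PBS libraries and 9 in replicate 2, against 10996, 39898, 12077 and 24021 in the WT cerulein libraries. Counts in KO PBS were 0, 0, 0, 24 and 14, and in KO cerulein 40561, 18462, 57405, 59136 and 18424. It therefore reached 0.155% to 0.305% of a library after cerulein and no more than 0.000715% after PBS. Its fitted log2 change was 12.04 ± 1.21 (SE, adjusted p = 3.19e-06, edgeR) in WT and 11.13 ± 1.12 (SE, adjusted p = 5.92e-06, edgeR) in KO, sizes that depend on the prior count because most PBS libraries are at 0. Without WT PBS replicate 2, the only WT PBS library with counts, the fitted change in WT was 17.69, and without the shallow libraries 17.92, so the SE does not bound the size.

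Row 17250 (rank 65), its neighbour in the table, showed the same pattern. It had 18 counts over all WT PBS libraries and 48 over all KO PBS libraries, against 60317 and 109161 after cerulein. Pooled over libraries and scaled to totals, that is 0.827 against 1421 CPM in WT and 0.913 against 1120 in KO. Its log2 change was 11.09 ± 0.96 (SE, adjusted p = 6.99e-07, edgeR) in WT, and in KO it rose with an adjusted p of 2.65e-06 (edgeR). Reads that 2 neighbouring or related genes share could be counted to either, and no source used here says how the authors' counting treated them.

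The other 14 transcripts that rose in WT differed widely in size. The one ranked 33 went from 0.00542% ± 0.00182 (SD, n = 5) to 0.430% ± 0.0632 (SD, n = 4) of library counts in WT and from 0.00880% ± 0.00186 (SD, n = 5) to 0.343% ± 0.116 (SD, n = 5) in KO. The one ranked 42, also a near neighbour of it in the table, went from 0.0104% ± 0.00425 to 0.337% ± 0.0403 in WT and from 0.0123% ± 0.00194 to 0.262% ± 0.0820 in KO. The fitted log2 changes were 6.64 and 5.16 for rank 33 and 5.36 and 4.21 for rank 42, in WT and KO in turn. In neither did the libraries of the 2 treatments overlap.

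The leader of block 3, ranked 20, was the most abundant transcript that rose. It held 0.237%, 0.320%, 0.272%, 0.0333% and 0.184% of WT PBS and 1.34%, 1.26%, 1.16% and 1.15% of WT cerulein. The KO PBS libraries had 0.178%, 0.117%, 0.187%, 0.0981% and 0.154%, and in KO cerulein 0.765%, 1.14%, 1.21%, 0.604% and 1.01%. Every cerulein library exceeded every PBS library of either genotype. The log2 change was 2.85 ± 0.63 (SE, adjusted p = 0.00912, edgeR) in WT and 2.57 ± 0.61 (SE, adjusted p = 0.0252, edgeR) in KO. The call in WT stood in all 9 fits that left out 1 library. In KO it stood in 3 of 10, without KO PBS replicate 1 or KO cerulein replicate 1 or 4. Leaving out any other KO library gave an adjusted p of 0.0534 to 0.0825 and a log2 change of 2.35 to 2.71. The transcript ranked 30 followed with log2 changes of 3.42 and 2.48, and the ones ranked 64, 70 and 82 with 3.50, 4.54 and 4.26 in WT and 2.31, 3.99 and 3.68 in KO.

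The rest that rose in WT were ranked 50, 52, 53, 57, 78, 90 and 98, with log2 changes in WT between 1.03 (rank 90) and 2.86 (rank 53). In the ones ranked 52 and 90 the shares of WT PBS and WT cerulein libraries overlapped although the test passed. The transcript ranked 84, which passed in KO with 1.89 ± 0.45 (SE, adjusted p = 0.0258, edgeR), had 1.47 ± 0.46 (SE, adjusted p = 0.0629, edgeR) in WT. Its KO call likewise stood in 3 of 10 such fits, without KO PBS replicate 1 or KO cerulein replicate 1 or 4, with adjusted p of 0.0523 to 0.0798 in the others. Summed, the 16 that rose in WT held 0.404% to 0.795% of the PBS libraries of both genotypes, 3.81% to 4.54% of WT cerulein and 2.68% to 4.44% of KO cerulein. The lowest 2 of these KO cerulein values were those of replicates 1 and 4. The 16 were picked by the WT comparison of these libraries, so the gap in WT follows from the choice. In KO it partly does, since most of the 16 entered through cerulein counts of both genotypes. Over the whole of block 3, the fitted change in WT was above 0 for all 43 transcripts with TMM and for 37 with library totals, and in KO for 34 and for 43, so the direction of the members not called depends on the scaling.

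Of the transcripts that fell in WT, row 57117 (rank 43) and row 57105 (rank 21) had the largest fall among those whose libraries did not overlap. Row 57117 held 0.828%, 0.413%, 0.248%, 0.407% and 0.816% of WT PBS and 0.123%, 0.0869%, 0.146% and 0.126% of WT cerulein. Row 57105 held 2.68%, 1.44%, 0.749%, 1.71% and 2.77% of WT PBS and 0.411%, 0.314%, 0.466% and 0.486% of WT cerulein. In both, the lowest WT PBS library was replicate 3, the one with block 1 high. Their log2 changes were -1.55 ± 0.37 (SE, adjusted p = 0.0148, edgeR) and -1.52 ± 0.45 (SE, adjusted p = 0.0481, edgeR).

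The other 5 that fell in WT were those ranked 26, 31, 38, 72 and 79. Rank 26 went from 1.36% ± 0.640 (SD, n = 5) to 0.322% ± 0.0526 (SD, n = 4) of library counts in WT, rank 31 from 0.845% ± 0.401 to 0.195% ± 0.0334, and rank 38 from 0.559% ± 0.264 to 0.146% ± 0.0244. In these 3 the libraries of the 2 treatments did not overlap in WT and did overlap in KO. Rank 72 went from 0.166% ± 0.0827 to 0.0366% ± 0.0223 (adjusted p = 0.0412, edgeR), and rank 79 had a log2 change of -2.41 ± 0.68 (SE, adjusted p = 0.0401, edgeR), the largest in size of the 7. Their WT libraries overlapped: rank 79 held 0.0170% to 0.381% of WT PBS and 0.00988% to 0.0327% of WT cerulein. In KO rank 79 had a log2 change of -0.02 ± 0.60 (SE, adjusted p = 0.994, edgeR).

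In KO mice the same rows overlapped between treatments. Row 57117 held 0.661%, 0.179%, 0.174%, 0.121% and 0.140% of KO PBS and 0.139%, 0.132%, 0.0803%, 0.175% and 0.103% of KO cerulein. KO PBS replicate 1 was the single high library. The log2 change of row 57117 in KO was -1.02 ± 0.34 (SE, adjusted p = 0.124, edgeR), and the difference of the KO response from the WT response was 0.53 (adjusted p = 0.829), so neither was called. Row 57105 had -0.88 ± 0.41 (SE, adjusted p = 0.310, edgeR) in KO.

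The calls of the 7 falls were lost when some single libraries were left out, while the falls themselves stayed. Summed, the 7 held 7.92%, 4.18%, 2.36%, 4.89% and 8.16% of WT PBS and 1.21%, 0.960%, 1.44% and 1.42% of WT cerulein. The 7 were picked by the comparison of these libraries, so the gap between the sums follows from the choice. Without WT cerulein replicate 1 or replicate 3 none of the 100 was called lower in WT, and 16 and 15 were called higher. Without WT PBS replicate 1, WT PBS replicate 5 or WT cerulein replicate 4, 1 was called lower, against 1.06%, 0.889% and 0.457% of all rows in turn. In all 9 fits that left out 1 library the 7 stayed below 0: row 57117 ran from -1.71 to -1.41 and row 57105 from -1.63 to -1.37. Calls over all rows tested also dropped, to 2.33% higher and 0.324% lower without WT cerulein replicate 1 and to 2.00% and 0.264% without replicate 3. Without WT PBS replicate 3, 41 of the 100 were called higher and 9 lower, against 5.58% and 1.85% of all rows tested. Without the 3 libraries that stand apart the numbers were 20 higher and 9 lower in WT (4.13% and 1.74% of all rows) and 19 higher in KO (2.73%). Without the 4 shallow libraries they were 16 higher and 4 lower in WT (663 and 247 of 16488 rows) and 16 higher in KO (398 rows).

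Among those 7, 5 lie in the last 50 rows of the table. That stretch holds 7 of the 100 transcripts, all in block 2. Their summed share was 8.53%, 4.52%, 2.58%, 4.74% and 8.88% in WT PBS and 1.47%, 1.09%, 1.68% and 1.55% in WT cerulein. In KO PBS it was 7.93%, 2.18%, 1.91%, 1.37% and 1.66%, and in KO cerulein 0.982% to 2.24%. The WT groups did not overlap, and the KO groups did, with KO PBS replicate 1 the only KO library above 2.24%. Position in the table was not used to choose the 100 transcripts. Elsewhere too abundant rows sat together: 24 of the 100 lay within 5 rows of another, in 10 stretches, and 11 of the 14 neighbouring pairs were of 1 block. The pairs that were not include row 17255 (rank 10, block 1), which lies 4 rows from row 17251 of block 3 and did not pass the test.

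**Figure D4:**
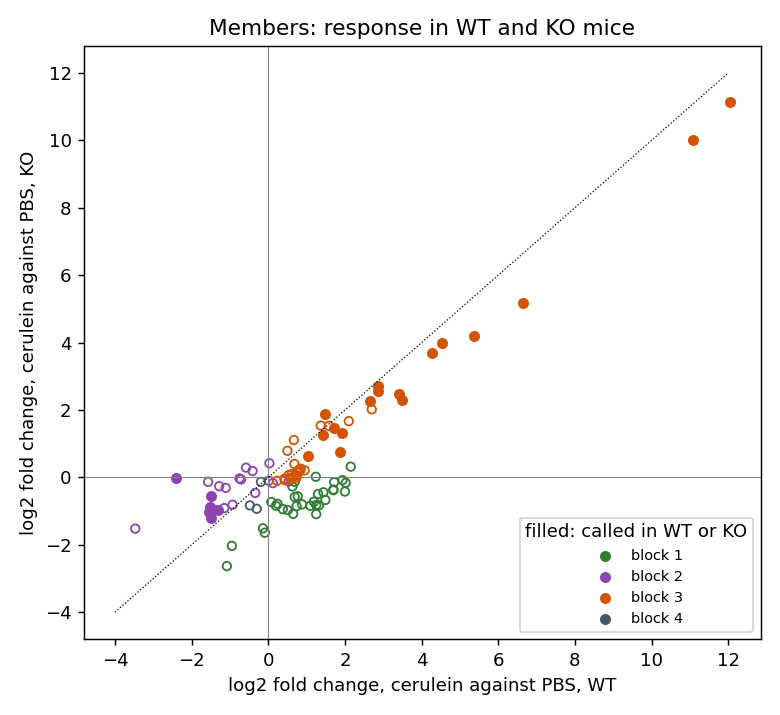
Log2 change with cerulein in KO (vertical) against that in WT (horizontal) for the 100 transcripts from the edgeR fit, coloured by block; filled points were called in WT or KO and the dotted line marks equal change. Block 1 lies to the right of 0 in WT for 28 of 32 and below 0 in KO for 30 of 32, with none called; the 2 points at the upper right are rows 17251 and 17250.

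Block 1, despite its weight, gave no call in the edgeR fit over all 19 libraries. Its median log2 change with cerulein was 0.99 in WT, where 28 of 32 were above 0, and -0.73 in KO, where 30 of 32 were below 0. Scaling by library totals in place of TMM gave 27 above 0 in WT and 24 below 0 in KO. Without the 3 libraries that stand apart the median was 0.71 in WT, with 25 above 0, and -0.24 in KO, with 21 below 0 and 11 above. Scaling by library totals moves the median of all rows tested to -0.708 in WT and 0.305 in KO, from -0.096 and 0.065. Without WT PBS replicate 3 the block median in WT was 2.75 with 32 above 0. Without the shallow libraries it was 0.48 in WT, with 26 above 0, and -1.20 in KO, with 32 below 0. Without the shallow libraries together with those that stand apart it was 0.10 in WT, with 17 above 0, and -0.75 in KO, with 30 below 0. These members vary together, so their signs are not separate observations. By limma-voom the block median was 2.63 in WT, with 32 above 0, and -0.43 in KO, with 28 below 0. The spread behind this was wide: the median SD of log2 (CPM + 0.5) within a group was 2.10 in WT PBS and 1.31 in KO PBS for block 1, against 0.19 in WT cerulein and 0.53 in KO cerulein. Over all rows tested these medians were 1.20, 1.04, 0.51 and 0.66.

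KO and WT were not told apart in any of the 100. After PBS, 0 of the 100 passed the edgeR test, against 0.0126% of all rows tested, and 7 had an unadjusted p under 0.05, against 8.85% of all rows; the lowest adjusted p was 0.448. The median log2 difference of block 1, KO against WT, was 1.44, and all 32 were above 0. Without WT PBS replicate 3 that median was 3.17, and without the shallow libraries and those that stand apart 0.91, in each case with 32 above 0. With library totals as the scale it was 1.19, with 30 above 0. Members of block 1 vary together and the block was formed from these libraries, so their signs are not separate observations. The libraries of the 2 genotypes overlapped in all 100 transcripts (non-overlap in 1.48% of all rows tested). After cerulein, 0 of the 100 passed, against 0% of all rows tested, and 2 had an unadjusted p under 0.05, against 4.11% of all rows. The transcript ranked 39 was the only one whose libraries did not overlap (1.48% of all rows tested): it held 0.203% to 0.216% of WT cerulein and 0.161% to 0.197% of KO cerulein. DESeq2 also called 0 of the 100 in both comparisons, against 0.537% of all rows after PBS and 0.133% after cerulein, and limma-voom called 0 of the 100 and 0% of all rows in both. That none passed does not show that the genotypes are alike, given the SD of the PBS groups.

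The genotype by treatment interaction, the KO response minus the WT response, was called for 0 of the 100 by edgeR, DESeq2 and limma-voom, against 0.00632%, 0.657% and 0.00632% of all rows tested in turn. An unadjusted p under 0.05 in edgeR was found for 4, against 9.20% of all rows, and the lowest adjusted p was 0.391. The interaction of block 1 had a median of -1.70, with all 32 below 0. This comparison uses the same WT PBS libraries as the KO against WT comparison after PBS and the same groups as both cerulein comparisons, so the signs are not separate observations. Without WT PBS replicate 3 the median was -3.42, and without the shallow libraries and those that stand apart it was -0.68.

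Within block 1, 28 of the 32 transcripts varied less as a part of the block than as a share of the library. The ratio of the highest to the lowest library had a median of 50.9 for the share of library counts, and of 3.48 for the part of the block's counts. The exceptions were ranked 39, 58, 68 and 86, steady in library share, with ratios of 52.7, 15.0, 37.6 and 22.5 as a part of the block and of 1.84, 3.91, 2.23 and 3.00 as a share of the library. On the second scale, the part of the block, 9 of 32 were higher in WT cerulein than in WT PBS with no overlap of libraries. Another 9 were lower, and in KO the numbers were 3 and 5. Parts sum to the whole block, so some must fall when others rise, and rows outside it give no reference share. The part also depends on block size. Rank 39 took 15.8% of the block in WT PBS replicate 4, where the block was smallest. In WT PBS replicate 3, where the block was largest in WT PBS, it took 0.366%. Since the block was formed from these values, this is a description with no test.

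Of the 32, 2 were higher and 5 lower in all cerulein libraries than in all PBS libraries on that scale. Rank 1, row 26984, took 12.5% ± 2.24 (SD, n = 5) of the block in WT mice given PBS and 16.7% ± 0.935 (SD, n = 4) after cerulein. For KO mice the values were 11.7% ± 1.64 (SD, n = 5) and 17.4% ± 2.04 (SD, n = 5). Rank 15 went from 1.12% to 3.05% in WT and from 1.66% to 3.18% in KO. These 2 made up more of the block after cerulein in both genotypes.

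The 5 that made up less were ranked 4, 16, 18, 22 and 60. Rank 16 took 4.59% ± 0.494 (SD, n = 5) of the block with PBS and 1.19% ± 0.109 (SD, n = 4) with cerulein in WT, and 3.16% ± 0.495 (SD, n = 5) and 1.12% ± 0.131 (SD, n = 5) in KO. Rank 18 went from 2.90% to 0.901% in WT and from 2.89% to 0.816% in KO. Rank 22 went from 3.30% to 1.03% and from 1.81% to 0.914%. Row 17056, rank 4, went from 7.88% to 5.49% in WT and from 7.26% to 5.73% in KO, the smallest relative change of the 5, and rank 60 from 0.453% to 0.172% and from 0.295% to 0.150%. None of these 7 passed the edgeR test on counts: rank 16 had a log2 change in KO of -2.03 (adjusted p = 0.310) and rank 18 of -2.63 (adjusted p = 0.220).

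**Figure D5:**
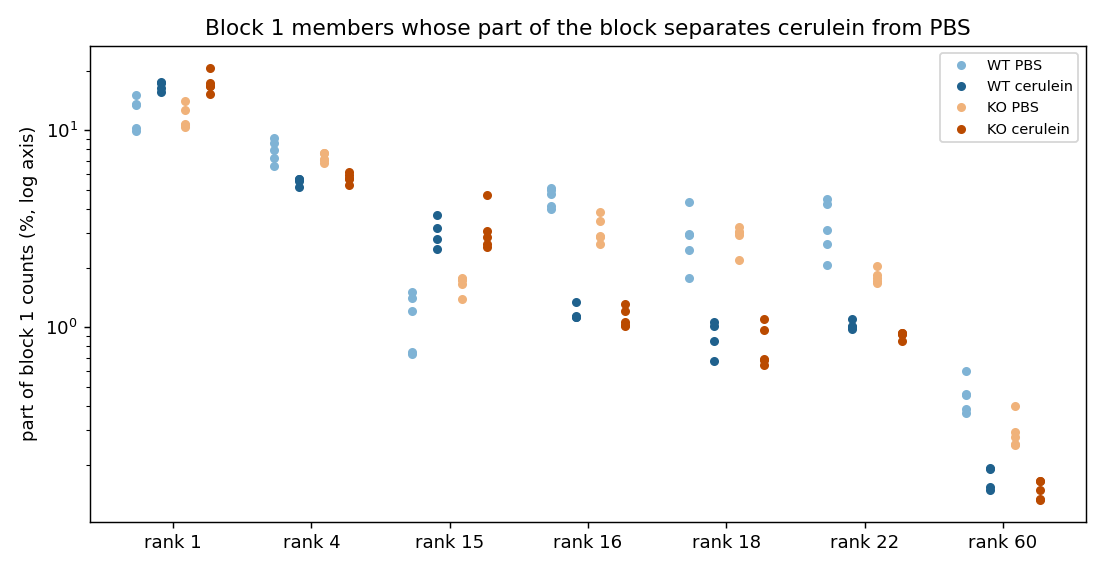
Part of block 1's counts, in percent on a log axis, taken by the 7 transcripts whose cerulein libraries, of both genotypes together, do not overlap with the PBS libraries; each point is 1 library, coloured by group. Rank 16 takes 4.59% of the block on average in WT PBS and 1.19% in WT cerulein, and rank 1 takes 12.5% and 16.7%.

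A few of the 100 hardly varied in share of library counts over the 19 libraries. The TMM factors of the fit ran from 0.5 (KO PBS replicate 4) to 1.9 (WT PBS replicate 4), so a steady share is not a steady level there. By share the steadiest was the transcript ranked 39, which held between 0.122% and 0.225% of every library, a ratio of 1.84. Of the 98 with counts in all libraries, 16 had a ratio under 2.5, and 14 of these were in block 3. The transcripts ranked 51, 92, 59 and 75 came next, with ratios of 1.91, 1.95, 1.96 and 1.98. Those at the edge of the choice were steady too: row 20037 (rank 99) held 0.0424% to 0.0945% of a library. At the other end, 14 of the 98 had a ratio above 100. The median biological coefficient of variation that edgeR estimated was 0.483 for the 100 and 0.626 for all rows tested; it was 0.877 in block 1 and 0.394 in block 3. Of these 2 blocks, the one with 18 of the 20 highest transcripts had the larger coefficient of variation.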

How the data were processed

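The authors deposited 1 table of raw counts per gene row and library; stranded polyA libraries of snap-frozen pancreas were read in pairs of 98 bases, per the labels' protocols. The submitters' processing notes name fastp, STAR and GRCm39, without versions. The counter, annotation and use of strand were not given in the sources used here. Shares are a row's counts over the library total.

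The members and lists were chosen with earlier results of these data known. Rows named were the 10 highest, those at the edge of rank 100, the leader of each block and, among members called in WT, the 2 largest rises and falls, preferring libraries that do not overlap. Tests used edgeR 4.0.16 in R 4.3.3 (filterByExpr, TMM, quasi-likelihood, 1 mean per group, all 19 libraries), with Benjamini-Hochberg adjustment over all 15831 rows and calls at an adjusted p under 0.05. SE is the log2 change over the square root of F. DESeq2 1.42.0 and limma 3.58.1 (voom), other scalings, no filter, a replicate block and leaving out libraries were alternatives. Counts carry no molecular identifiers. Same-group libraries differed by at least 18.7 times sampling noise (chi-square per degree of freedom), so none was counted as a copy.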

Additional observations from a re-analysis of the deposited data

Results flagged for a closer look

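In 14 of the 76 sets of library values examined, the highest or lowest library lay far from the others of its group. Chance gives about 1 in 20 for independent sets, and these are not independent, since members of a block move together. WT PBS replicate 3 accounts for 6 of the 14. There block 1 held 61.5% of counts, the next WT PBS library 18.8%, and single members of that block were far above the rest: row 26984 at 9.29%, row 4212 at 3.22%, row 17306 at 2.57%, row 12880 at 2.74% and row 7647 at 2.68%. KO PBS replicate 1 was far from its group in block 3 (3.91%, the next 2.60%), row 17255 (0.401%, the next 3.10%), row 57117 (0.661%, the next 0.179%) and row 57105 (2.58%, the next 0.682%). In WT PBS replicate 4, block 3 held 5.38%, the next 3.35%. In WT cerulein replicate 4, block 4 held 1.15%, the next 0.243%. WT PBS replicate 2 held 0.000715% in row 17251, where the other WT PBS libraries are at 0, so that any count there stands out, and 0.000477% in row 17250, the next 0.000136%.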

How the results depend on the processing

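The number of the 100 transcripts called for cerulein in WT was 23 in the edgeR test, against 5.62% of all rows. DESeq2 called 33, of which 21 rose and 12 fell, against 11.7%, and limma-voom 39, of which 31 rose and 8 fell, against 8.07%. Leaving out 1 library at a time gave 15 to 50, against 2.26% to 7.42% of all rows. In KO the number called was 15, against 1.88% of all rows. DESeq2 called 24 in KO, against 5.51%, and limma-voom 25, against 6.61% (6 of them lower in each). Leaving out 1 KO library at a time gave 13 to 17, against 0.915% to 3.43%. The causes were not tested. Of the 16 rises in WT, 15 passed in every fit that left out 1 library and 11 in all 19 alternatives; for the 15 rises in KO 13 passed in every such fit and 12 in all 20 alternatives, and of the 7 falls in WT none passed in all. No called transcript changed sign in the alternatives run. With the replicate number as a block, 19 were called in WT (16 higher, 3 lower), against 4.72% of all rows, and 15 in KO, against 1.58%. In the other 3 comparisons 0 were called. Deviations from the group mean had correlations of -0.203 to 0.184 between same-numbered libraries. Differently numbered libraries were not compared, so whether the numbers pair the libraries was not settled. The main fit did not pair them. The share of counts outside block 1 and the lists by PBS or cerulein libraries alone were added after the data were seen. The 4 shallow libraries are all in the PBS groups, and the part of depth in the results was not tested. With 4 or 5 libraries a group small differences are not detectable.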
